A study of Mus musculus with 6 samples.

Results

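The endothelin and Hand genes followed here are 10 of the 46983 genes in a count table of sorted mouse neural crest cells (NCCs). They were chosen by name, as the receptors Ednra and Ednrb, the ligands Edn1 and Edn3, the processing enzyme Ece1, the G protein subunits Gnaq and Gna11, and the transcription factors Mef2c, Hand1 and Hand2. All 10 were found by Ensembl identifier, and 8 of them passed the filter on low counts, Edn3 and Hand1 being the others. The embryos were at E11.25 and carried Wnt1Cre/+ and Rosa26mTmG/+, a reporter that turns on membrane GFP after Cre recombination. The 3 control samples were BAF155flox/+;BAF170flox/+, so that they too could lose 1 copy of each gene, and the 3 BAF155/BAF170-deficient samples were BAF155flox/flox;BAF170flox/flox. BAF155 and BAF170 are core subunits of the BAF chromatin remodeling complex. Cre under Wnt1 control acts in the dorsal neural tube and in the neural crest that leaves it, so the sorted cells need not all be crest. In every library macrophage markers summed to far higher levels than crest markers, as given below.

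Endothelins are short peptides cut from longer precursors, the last cut being made by endothelin converting enzymes such as Ece1. In the pharyngeal arches, Edn1 from epithelium, mesoderm and endothelium acts on Ednra in the crest-derived mesenchyme, which signals through the Gq and G11 proteins encoded by Gnaq and Gna11. This pathway acts with Mef2c to turn on Dlx5, Dlx6 and Hand2, the genes that give the lower jaw its identity. Edn3 acts on Ednrb in the crest cells that form enteric neurons and melanocytes. Hand1 and Hand2 are basic helix-loop-helix (bHLH) factors of the distal arch and the heart. The comparison of the control and BAF155/BAF170-deficient samples asked which of these genes changed with the loss of both subunits.

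In Ednra, Edn3 and Gna11 all 3 deficient libraries lay below all 3 controls, as in 16.4% of all tested genes, which leave out Edn3. The study placed the BAF complex beside Tead factors, which bind DNA, and Hand factors bind E-boxes. The promoters of Ednra, Edn3 and Gna11 are therefore shown, with that of Hand2, the arch gene downstream of the receptor. They are the 250 bases upstream of the RefSeq start in GRCm38.p6, written 5′ to 3′ on the strand of the gene, with capitals for the Tead core GGAATG (or CATTCC on the other strand) and for the E-box CANNTG, both searched on both strands. Ednra lies on the minus strand at chr8:77724453-77724702, Edn3 on the plus strand at chr2:174760369-174760618, Gna11 on the minus strand at chr10:81545163-81545412 and Hand2 on the plus strand at chr8:57320733-57320982.
Ednra: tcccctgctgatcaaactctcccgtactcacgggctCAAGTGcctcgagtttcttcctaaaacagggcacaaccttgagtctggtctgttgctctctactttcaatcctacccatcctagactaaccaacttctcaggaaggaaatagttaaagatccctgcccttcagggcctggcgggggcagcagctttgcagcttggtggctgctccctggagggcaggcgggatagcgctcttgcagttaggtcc
Edn3: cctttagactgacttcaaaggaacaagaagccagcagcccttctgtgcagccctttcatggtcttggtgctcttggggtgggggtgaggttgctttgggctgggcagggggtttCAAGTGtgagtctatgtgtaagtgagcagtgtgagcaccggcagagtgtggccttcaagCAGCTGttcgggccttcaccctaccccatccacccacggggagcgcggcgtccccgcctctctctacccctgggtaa
Gna11: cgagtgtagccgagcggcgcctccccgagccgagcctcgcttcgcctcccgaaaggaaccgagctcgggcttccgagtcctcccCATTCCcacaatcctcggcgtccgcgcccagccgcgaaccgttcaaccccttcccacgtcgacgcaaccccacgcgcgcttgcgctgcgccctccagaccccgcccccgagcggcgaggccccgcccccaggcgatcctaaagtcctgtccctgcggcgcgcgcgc
Hand2: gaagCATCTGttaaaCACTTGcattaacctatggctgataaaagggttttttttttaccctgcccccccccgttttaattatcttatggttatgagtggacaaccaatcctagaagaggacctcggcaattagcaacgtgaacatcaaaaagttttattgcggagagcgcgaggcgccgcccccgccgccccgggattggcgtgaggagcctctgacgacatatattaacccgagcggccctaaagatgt

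The Ednra window held 1 E-box, whose first base lay 214 bases before the start, and no Tead core. The Edn3 window held E-boxes at 136 and 77 bases before the start, and the Hand2 window at 246 and 235 bases. The Gna11 window held a Tead core 166 bases before the start and no E-box. A Tead core was also in the windows of Edn1 (207 bases before the start) and of 1 start of Mef2c (75 bases), so 3 of 14 windows held it. Gna11, Edn1 and Mef2c were all not called, and a link between the core and the level of a gene was not tested. A Tead core was in 12.6% and an E-box in 66.2% of 32851 RefSeq promoter windows of this length, so that E-boxes were in most windows. The Gna11 window had 38 CpG, the Hand2 window 15, the Edn3 window 7 and the Ednra window 6, against a median of 6 over all windows. RefSeq windows were at hand for 9 of the 10 genes, all but Hand1. The study searched for Tead motifs in much longer promoters of its differentially expressed genes, so these short windows cannot be set against that search. Such letters are a description of the sequence, and binding was not measured here.

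The libraries held between 8191219 and 11661941 counts in control samples and between 12633319 and 19808620 in the deficient samples, each deficient library being the deeper. Smarcc1, which encodes BAF155, was called lower (42.1, 55.0 and 35.1 counts scaled to library size, CPM, among control replicates 1 to 3, and 29.4, 26.4 and 24.5 CPM among deficient replicates 1 to 3), and the call was lost without replicate 1 or 2 of the controls or replicate 2 or 3 of the deficient samples. Smarcc2, which encodes BAF170, had 89.9 to 92.9 CPM in control samples and 82.3 to 86.8 CPM in deficient samples and was not called (log2 fold change −0.11, edgeR with Benjamini-Hochberg adjustment, adjusted p = 0.251). Counts per gene can also hold transcripts that lost the floxed exons, but single exons were not examined and this was not tested. The labelled cell type was checked against marker lists, and the markers of crest cells were few. The 12 mesenchymal crest markers summed to 140 to 250 CPM in control samples and to 69.9 to 114 CPM in deficient samples, with 6 of 9 tested called lower. The 6 glial crest markers summed to 24.9 to 53.6 CPM and to 18.2 to 25.2 CPM, with Sox10 at 2.22 to 7.76 CPM in the controls. The 12 macrophage markers summed to 12333 to 14262 CPM in control samples and to 14405 to 15735 CPM in deficient samples, Lyz2 alone reaching 3000 to 3870 CPM. The 41 embryonic markers, which cover mesenchymal, glial, sensory and autonomic crest and neural tube, were lower in every deficient library (124 to 203 CPM) than in any control (221 to 420 CPM). Of the other lists, the 10 endothelial markers summed to 183 to 206 CPM and to 210 to 224 CPM, most of it Kdr, with 7 of the 10 under 2 CPM. The 8 cardiomyocyte markers summed to 197 to 238 CPM and 197 to 212 CPM, the 8 erythroid markers to 16.4 to 59.8 CPM and 9.71 to 15.3 CPM, the 7 neutrophil markers to 17.5 to 22.7 CPM and 23.9 to 27.5 CPM, and the 4 epithelial markers to 1.6 to 2.94 CPM and 0.862 to 1.10 CPM. In such bulk samples fewer cells of a type and less RNA per cell cannot be told apart. The part of these marker shifts in the values below was not tested, other than by scaling the libraries to 24 embryonic markers with at least 2 CPM, which takes the median of those markers as equal in all libraries. By its construction that scaling moved the all-gene median of the log2 fold change from −0.02 to 0.844, and 52.9% of the tested genes were then called higher, so every value under it is to be read against that shift.

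Of the 8 tested genes, Ednra alone was called lower and none was called higher. Edn1, Ece1, Ednrb, Gnaq, Gna11, Mef2c and Hand2 did not pass the thresholds, which does not show that they were unchanged. A call needed an adjusted p no higher than 0.1 (edgeR's quasi-likelihood test, Benjamini-Hochberg), a log2 fold change of 0.58 or more in size and a mean level no lower than 2 CPM. The 1 gene called lower stands beside 4.88% of the 13961 tested genes, and the 0 genes called higher beside 0.0573%. Over the 8 genes, 3 had an unadjusted p under 0.05 (Ednra and Gna11 lower, Edn1 higher), where 15.2% of all tested genes had one and were lower and 12.1% had one and were higher, and DESeq2 and limma-voom called 0 higher. In Ednra and Gna11, all 3 deficient libraries lay below all 3 controls, as they did in 16.4% of all tested genes, and in none of the 8 did they all lie above, as in 15.0% of all genes. The plot of the 10 genes by library shows these values.

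**Figure D1:**
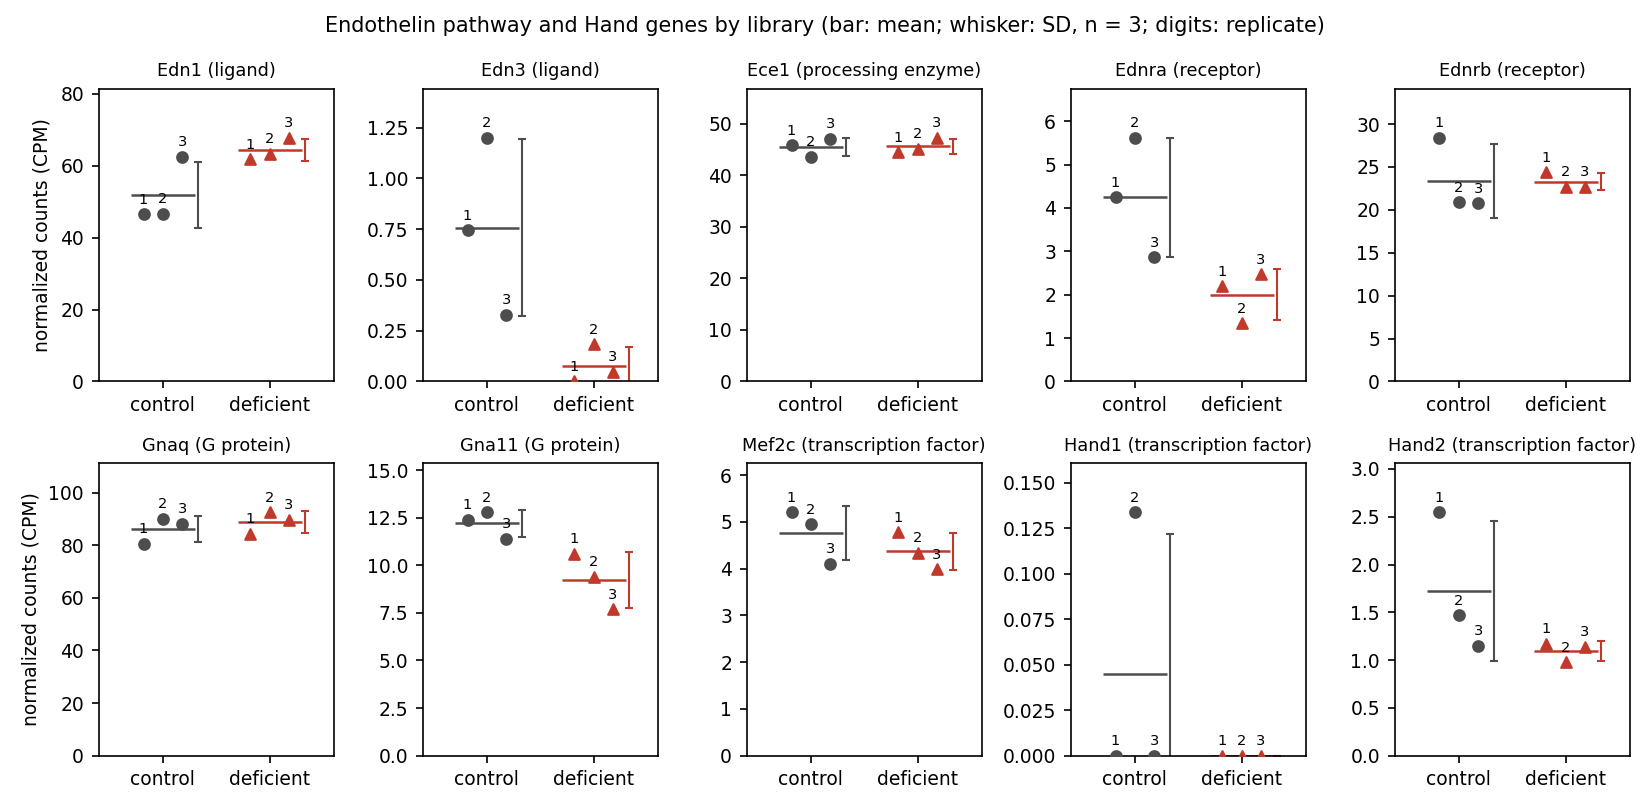
Normalized counts (CPM, vertical axis, each from 0 on its own scale) of the 10 endothelin and Hand genes in the 3 control (grey circles) and 3 BAF155/BAF170-deficient libraries (red triangles); bars are means, whiskers the SD (n = 3, cut at 0), and digits the replicate. Ednra sits between 2.87 and 5.62 CPM in control samples and between 1.34 and 2.47 CPM in deficient samples, while Ednrb, Ece1, Gnaq and Mef2c overlap between the groups.

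Levels were compared between genes as CPM per kilobase of exon. Edn1 had the highest mean over the 6 libraries (27.2 CPM per kilobase, from 21.8 to 31.7), followed by Gnaq (14.2, from 13.0 to 15.0), Ece1 (8.60, from 8.23 to 8.92), Ednrb (5.47, from 4.89 to 6.66) and Gna11 (2.62, from 1.88 to 3.13). No 2 of these 5 ranges overlapped. Below them came Hand2 (0.600, from 0.416 to 1.09), Ednra (0.571, from 0.245 to 1.03), Mef2c (0.290, from 0.254 to 0.332), Edn3 (0.102, from 0 to 0.293) and Hand1 (0.0112, from 0 to 0.067). Here each gene's range overlapped that of its neighbour in the order. The lengths are of all annotated exons joined, 15715 bases for Mef2c, so a gene of which only a short transcript is made is set too low. The ligand Edn1 was thus the most abundant of the 10 in these bulk libraries, where macrophage markers far exceeded crest markers. Which cells made it was not tested. Both Hand genes and Ednra, which act in the arch mesenchyme but not only there, were among the least abundant, with Mef2c and Edn3.

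Among the ligands, Edn1 (ENSMUSG00000021367.7, GRCm38 chromosome 13, 42301476 to 42307990) had 46.6, 46.7 and 62.5 CPM among control replicates 1 to 3 and 61.9, 63.4 and 67.8 CPM among deficient replicates 1 to 3. Control replicate 3 lay within the deficient values, so the groups overlapped, with the other 2 controls lower. The log2 fold change was 0.30 (standard error 0.11, 95% interval 0.06 to 0.55) and did not pass (edgeR with Benjamini-Hochberg adjustment, adjusted p = 0.118). Without control replicate 3 it was 0.47 (edgeR with Benjamini-Hochberg adjustment, adjusted p = 0.00992), still under the fold threshold. Over 14 alternatives its adjusted p (Benjamini-Hochberg) ran from 0.00383 to 0.344, DESeq2 giving 0.0784. Set against the summed macrophage markers, which were higher in all 3 deficient libraries, Edn1 was 0.356%, 0.379% and 0.438% in control samples and 0.430%, 0.421% and 0.431% in the deficient libraries. The last of the controls was the highest of the 6. This ratio, like the others set against markers below, was chosen after the values were seen and is a description. Scaled to the embryonic markers, Edn1 was at a log2 fold change of 1.12 and among the 52.9% of genes called higher, beside an all-gene median of 0.844 (edgeR with Benjamini-Hochberg adjustment, adjusted p = 0.0756).

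Edn3 (ENSMUSG00000027524.9, chromosome 2 from 174760619 to 174784042), the ligand of Ednrb, had 7, 9 and 4 counts in control samples and 0, 3 and 1 in the deficient libraries. It amounted to 0.744, 1.2 and 0.328 CPM against 0, 0.183 and 0.0475 CPM, every deficient value being below every control value. Of all tested genes, which leave out Edn3, 16.4% lay that way. Pooled over the libraries of a group, 20 counts in control samples and 4 in the deficient samples gave 0.688 and 0.0797 CPM, an 8.63-fold lower level with a 95% counting interval of 2.89 to 34.7. This interval covers counting error only and leaves out the spread between embryos. Fitted with every gene that had at least 1 count, its log2 fold change was −3.00 (standard error 0.94, edgeR with Benjamini-Hochberg adjustment, adjusted p = 0.0297), where 5.31% of 32523 genes had such an adjusted p and a lower level. Edn3 did not pass the filter of the reported fit, and in this wider fit its mean under 2 CPM kept it from a call.

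Ece1 (ENSMUSG00000057530.14, chromosome 4 from 137862237 to 137965229), which makes the active peptide from big endothelin, had the log2 fold change nearest to 0 of the tested genes. It had 45.8, 43.6 and 47.1 CPM in control samples and 44.5, 45.2 and 47.3 CPM in deficient samples. The groups overlapped and the log2 fold change was 0.00 with a 95% interval of −0.15 to 0.15 (edgeR with Benjamini-Hochberg adjustment, adjusted p = 0.981). Over the macrophage marker sum it was 0.330% to 0.354% in control samples and 0.301% to 0.309% in deficient samples, without overlap. Under the scaling to the embryonic markers it was at 0.86, close to the all-gene median of 0.844, and among the 52.9% of genes called higher (edgeR with Benjamini-Hochberg adjustment, adjusted p = 0.0848).

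Of the other enzymes and peptides of the family, 3 of 5 listed genes were tested (Ece2, Ecel1 and Mme). Of these, 1 was called lower and none higher, beside 4.88% and 0.0573% of all tested genes. Mme, which encodes neprilysin, a peptidase that breaks down endothelins among other peptides, fell from 3.94, 4.55 and 2.71 CPM to 0.940, 0.794 and 1.04 CPM. The groups were far apart, and its log2 fold change was −1.98 (standard error 0.33, edgeR with Benjamini-Hochberg adjustment, adjusted p = 0.0439). Ece2, a relative of Ece1, had 19.7 to 20.7 CPM in control samples and 23.1 to 24.3 CPM in deficient samples, a log2 fold change of 0.23 that did not pass (edgeR with Benjamini-Hochberg adjustment, adjusted p = 0.131). In both of them the groups did not overlap.

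Ednra (ENSMUSG00000031616.7, chromosome 8 from 77663031 to 77724464), the receptor for Edn1 in arch mesenchyme, fell. It had 4.25, 5.62 and 2.87 CPM among control replicates 1 to 3 (40, 42 and 35 counts) and 2.19, 1.34 and 2.47 CPM among deficient replicates 1 to 3 (28, 22 and 52 counts). Control replicate 2 was the highest and deficient replicate 2 the lowest, and the smallest control value lay above the largest deficient value. The means were 4.25 ± 1.37 CPM (SD, n = 3) and 2.0 ± 0.586 CPM (SD, n = 3), with a log2 fold change of −1.05 (standard error 0.33, 95% interval −1.78 to −0.33, edgeR with Benjamini-Hochberg adjustment, adjusted p = 0.0933). The call did not hold when any of 4 libraries was left out. By the same test and adjustment (edgeR, Benjamini-Hochberg) the adjusted p was 0.258 without control replicate 1, 0.289 without control replicate 2, 0.192 without deficient replicate 2 and 0.205 without deficient replicate 3. Over its 14 alternatives the adjusted p lay between 0.0274 and 0.860, and limma-voom (Benjamini-Hochberg adjusted p = 0.106) did not call it either.

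The mesenchymal crest markers were lower as well, all 9 tested with negative log2 fold changes. Ednra was 2.39%, 2.24% and 2.05% of the sum of all 12 listed in control samples and 1.92%, 1.74% and 3.53% in the deficient libraries, where deficient replicate 3 was the highest of the 6 and the groups overlapped. With the libraries scaled to the 24 embryonic markers, its log2 fold change was −0.09 (edgeR with Benjamini-Hochberg adjustment, adjusted p = 0.860). An antisense gene, 4933431K23Rik, shares 91 exon bases with Ednra and had 1 to 4 counts in control samples and 2 to 11 in the deficient libraries. The strand setting of the counting is not given in the sources used here.

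Ednrb (ENSMUSG00000022122.14, chromosome 14 from 103814625 to 103844402), the receptor for Edn3 in enteric and melanocyte precursors, had 28.4, 20.9 and 20.8 CPM in control samples and 24.4, 22.7 and 22.7 CPM in deficient samples. Control replicate 1 was the highest and the other 2 controls the lowest, with all deficient values between them. The log2 fold change was −0.01 with a 95% interval of −0.27 to 0.26 (edgeR with Benjamini-Hochberg adjustment, adjusted p = 0.973). All 4 tested glial crest markers had negative log2 fold changes, 1 of them called. Against the sum of all 6 listed glial crest markers, Ednrb was 89.6%, 38.9% and 83.8% in control samples and 96.6%, 125% and 107% in the deficient libraries, with no overlap. Under the scaling to the embryonic markers Ednrb too was at 0.86 beside the all-gene median of 0.844, and among the 52.9% of genes called higher (edgeR with Benjamini-Hochberg adjustment, adjusted p = 0.0780).

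The receptors were also set against each other within each library, which does not depend on the scaling of the libraries. Ednra counts were 15.0%, 26.9% and 13.8% of Ednrb counts in control samples and 9.0%, 5.91% and 10.9% in the deficient libraries. Every deficient ratio was below every control ratio, and the log2 ratio was lower by a difference of −1.09. The exact permutation test, two-sided, gave p = 0.1, the smallest that 3 against 3 libraries allow, and 0.1 after adjustment over the 2 pairs compared. The plot of ratios within a library shows this pair, the pair of G protein genes, and Ednra and Edn1 over their marker sums.

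**Figure D2:**
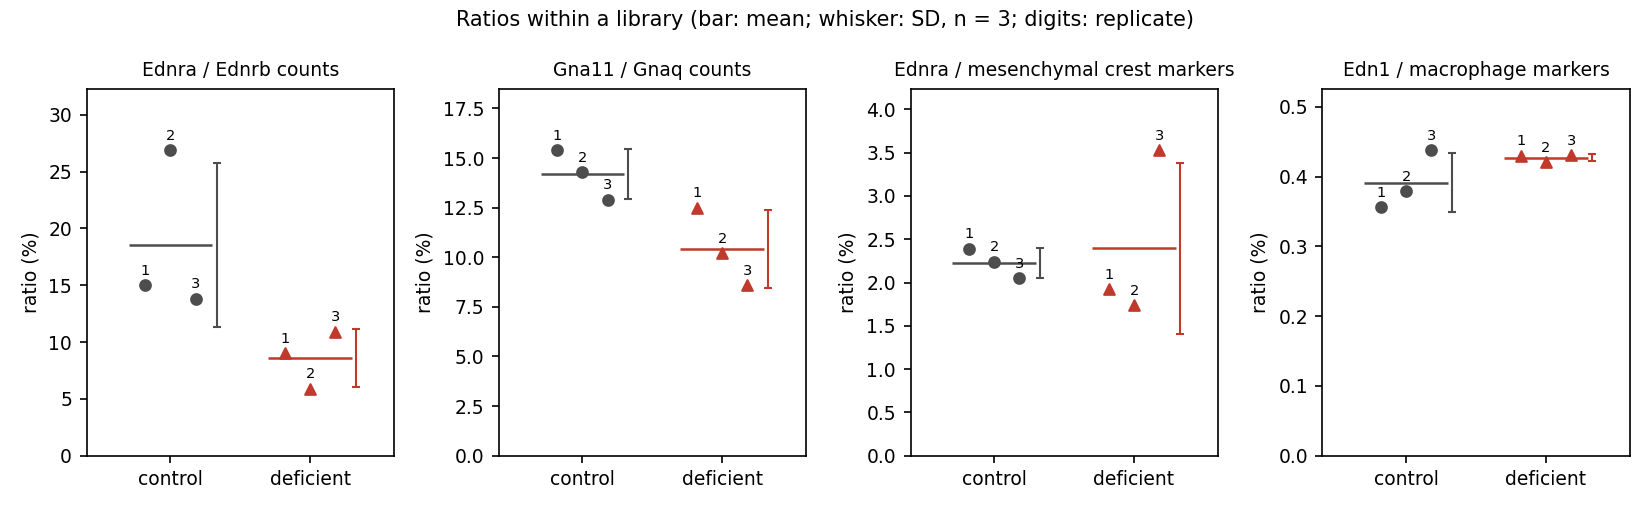
Ratio in percent (vertical axes, from 0) of Ednra to Ednrb counts, of Gna11 to Gnaq counts, of Ednra to the mesenchymal crest marker sum and of Edn1 to the macrophage marker sum, in control (grey circles) and BAF155/BAF170-deficient libraries (red triangles); bars are means, whiskers the SD (n = 3), and digits the replicate. The first 2 ratios do not overlap between the groups (13.8% to 26.9% against 5.91% to 10.9%, and 12.9% to 15.4% against 8.59% to 12.5%), and the last 2 overlap.

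A list of genes with a part in the lineages that use Ednrb (enteric, melanocyte and glial precursors) held some that fell. Of the 14 listed, 10 were tested, and 2 were called lower and none higher, beside 4.88% and 0.0573% of all tested genes. The median log2 fold change was −0.89, against −0.02 over all tested genes. Sox10, a factor of early crest and of its glial and pigment derivatives, fell from 4.36, 7.76 and 2.22 CPM to 1.49, 0.855 and 1.19 CPM, a log2 fold change of −1.99 (standard error 0.45, edgeR with Benjamini-Hochberg adjustment, adjusted p = 0.0625). Kit, a receptor of melanoblasts that other cells also use, fell from 5.0, 5.22 and 3.28 CPM to 2.27, 2.38 and 2.14 CPM, at −0.98 (standard error 0.27, edgeR with Benjamini-Hochberg adjustment, adjusted p = 0.0777). In neither did the groups overlap. Of the 10 tested genes, 8 had negative log2 fold changes and 2 positive ones. Mitf was at 0.19, with every deficient library above every control, and was not called (edgeR with Benjamini-Hochberg adjustment, adjusted p = 0.113). Zeb2 was at 0.05, and its groups overlapped. Dct and Pmel, also listed, were not tested. Sox10 and other genes of this list are also among the embryonic markers, and under the scaling to those markers the median of the list was 0.05. Without control replicate 2 it was −0.55.

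Gnaq (ENSMUSG00000024639.5, chromosome 19 from 16132831 to 16387463) encodes the alpha subunit of Gq. It had 80.6, 90.0 and 88.2 CPM in control samples and 84.3, 92.6 and 89.6 CPM in deficient samples. The groups overlapped, and the log2 fold change was 0.04 with a 95% interval of −0.10 to 0.19 (edgeR with Benjamini-Hochberg adjustment, adjusted p = 0.718). Over the macrophage marker sum it was 0.617% to 0.730% in control samples and 0.569% to 0.616% in deficient samples, without overlap. Under the scaling to the embryonic markers it was at 0.91 beside the all-gene median of 0.844, and among the 52.9% of genes called higher (edgeR with Benjamini-Hochberg adjustment, adjusted p = 0.0810).

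Gna11 (ENSMUSG00000034781.5, chromosome 10 from 81528724 to 81545190), which encodes the closely related alpha subunit of G11, had 12.4, 12.8 and 11.4 CPM in control samples and 10.6, 9.41 and 7.69 CPM in deficient samples. All 3 deficient values lay below the lowest control. The log2 fold change of −0.41 (standard error 0.16, 95% interval −0.75 to −0.07) did not pass (edgeR with Benjamini-Hochberg adjustment, adjusted p = 0.122), and it was 0.44 under the scaling to the embryonic markers (adjusted p = 0.326), below the all-gene median there. Over the macrophage marker sum it was 0.0800% to 0.104% in control samples and 0.0489% to 0.0734% in deficient samples, without overlap. Within each library, Gna11 counts were 15.4%, 14.3% and 12.9% of Gnaq counts in control samples and 12.5%, 10.2% and 8.59% in the deficient libraries. These ratios did not overlap either, with a difference of −0.46 in the log2 ratio (exact permutation test, two-sided, p = 0.1, and 0.1 after adjustment over the 2 pairs).

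The other genes of the Gq route were not called in the reported fit. Of 23 listed G protein subunits, phospholipases C, inositol trisphosphate receptors, protein kinases C and regulators, 21 were tested and edgeR called 0 lower and 0 higher, as did DESeq2 and limma-voom for lower calls. In the fit with every gene of at least 1 count, 1 of the list was called lower. The median log2 fold change was 0.01, with 1 gene lower and 3 higher at an unadjusted p under 0.05, beside 15.2% and 12.1% of all tested genes. An adjusted p no higher than 0.1, whatever the fold and level, was met by 7.75% of all tested genes on the lower side and 4.18% on the higher side. Gnb2, a beta subunit, had 289 to 313 CPM in control samples and 333 to 353 CPM in deficient samples, without overlap. Its log2 fold change of 0.21 passed the adjusted p but not the fold threshold (edgeR with Benjamini-Hochberg adjustment, adjusted p = 0.0828). So did that of Gna13, the alpha subunit of G13, at 0.20 (427 to 477 CPM against 499 to 534 CPM, edgeR with Benjamini-Hochberg adjustment, adjusted p = 0.0933). Beside these values, all 12 macrophage markers had positive log2 fold changes, whose median was 0.19.

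**Figure D3:**
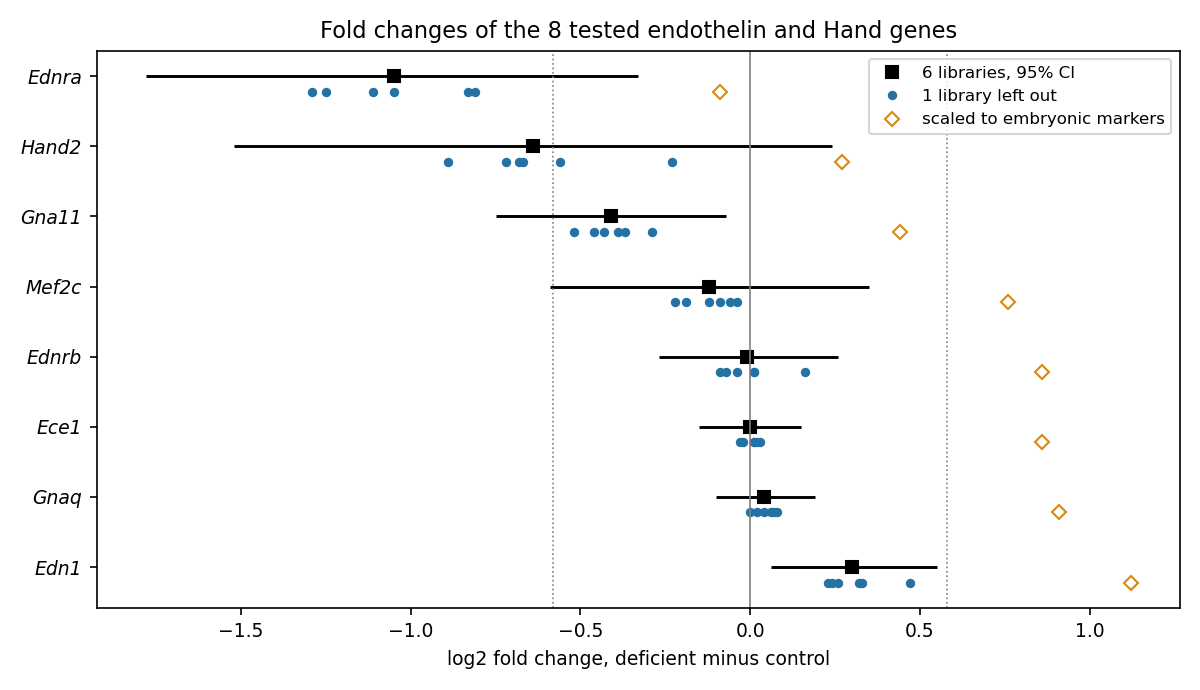
Log2 fold change, deficient minus control (horizontal axis), of the 8 tested endothelin and Hand genes, in edgeR's fit of all 6 libraries (black squares with 95% intervals), with 1 library left out (blue circles) and with the libraries scaled to the embryonic markers (open diamonds); dotted lines mark 0.58 in either direction. Ednra stays between −1.29 and −0.81 when a library is left out and is at −0.09 under the scaling, while Edn1, Ece1, Ednrb and Gnaq are at 0.86 to 1.12 under it.

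Mef2c (ENSMUSG00000005583.16, chromosome 13 from 83504034 to 83667080), a MADS-box factor that acts in arch mesenchyme, muscle, endothelium and also in white blood cells, had 5.21, 4.95 and 4.10 CPM in control samples and 4.78, 4.34 and 3.99 CPM in deficient samples. The groups overlapped. Its log2 fold change was −0.12, with a 95% interval of −0.59 to 0.35 that still holds a fall of the size used for a call (edgeR with Benjamini-Hochberg adjustment, adjusted p = 0.759). It was 0.76 under the scaling to the embryonic markers (adjusted p = 0.101) and 0.17 after a trend on gene length was removed (adjusted p = 0.639). Of 9 listed Mef2 factors and cofactors, 8 were tested and 0 were called by edgeR, with 0 at an unadjusted p under 0.05, and DESeq2 and limma-voom called 0 lower. Their median was −0.07. The lowest adjusted p were those of Hdac4 and Hdac9, class IIa histone deacetylases that hold Mef2 inactive, and the groups overlapped in both. Hdac4 had 8.62 to 11.9 CPM and 6.08 to 9.47 CPM (log2 fold change −0.39), and Hdac9 had 13.5 to 16.0 CPM and 15.1 to 19.4 CPM (log2 fold change 0.24).

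Hand2 (ENSMUSG00000038193.3, chromosome 8 from 57320983 to 57324633), the bHLH factor of the distal arch, had 24, 11 and 14 counts in control samples and 15, 16 and 24 in the deficient libraries. These were 2.55, 1.47 and 1.15 CPM and 1.17, 0.978 and 1.14 CPM. Control replicate 1 stood above the other 5 libraries, and control replicate 3 lay within the deficient values. The log2 fold change was −0.64 (standard error 0.40, 95% interval −1.52 to 0.24) and did not pass (edgeR with Benjamini-Hochberg adjustment, adjusted p = 0.324). Without control replicate 1 it was −0.23, and under the scaling to the embryonic markers 0.27 (adjusted p = 0.648). The mean of 1.41 CPM was also under the minimum for a call. Hand2os1, a transcript from the opposite strand that shares 461 exon bases with Hand2, had 4 to 11 counts in control samples and 13 in each deficient library.

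Hand1 (ENSMUSG00000037335.13, chromosome 11 from 57828705 to 57832818), the relative of Hand2 in the distal arch and the heart, had 1 count in control replicate 2 and 0 in the other 5 libraries. A count of 0 allows up to 3 counts, which is 0.319 CPM in control replicate 1 and 0.246 CPM in control replicate 3, and 0.235, 0.183 and 0.142 CPM in deficient samples. A difference between the groups was not detectable at this depth. The cardiomyocyte markers, whose sums are given above, did not all stand as low as Hand1, with Nkx2-5 at most 1.10 CPM but Tnnt2 at 51.3 to 60.1 CPM and Myh6 at 115 to 141 CPM.

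Genes that act downstream of the receptor or beside the Hand factors were also lower where they were called. Of 10 listed genes of the mandibular arch, 4 were tested, and 1 was called lower and none higher, beside 4.88% and 0.0573% of all tested genes. Their log2 fold changes had a median of −1.07 (−0.17 under the scaling to the embryonic markers), against −0.02 over all tested genes. Msx1, a homeobox factor of the distal arch, fell from 4.68, 8.03 and 3.94 CPM to 3.13, 2.32 and 1.38 CPM, at −1.29 (standard error 0.36, edgeR with Benjamini-Hochberg adjustment, adjusted p = 0.0809). Dlx6, a homeobox gene that Ednra signaling turns on, had 2.02, 1.61 and 1.4 CPM in control samples and 0.313, 0.244 and 0.285 CPM in deficient samples. Its groups did not overlap and its log2 fold change of −2.54 passed the adjusted p (standard error 0.46, edgeR with Benjamini-Hochberg adjustment, adjusted p = 0.0455), but its mean of 0.977 CPM was under the minimum for a call.

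Genes of the maxillary and proximal arch, where endothelin signaling is low, gave calls in the same direction. All 8 listed were tested, and 3 were called lower (Six2 and Shox2 among them) and none higher, beside 4.88% and 0.0573% of all tested genes. Their median was −0.96 (−0.06 under the scaling), against −0.02 over all tested genes. The count called lower was 6 with DESeq2 and with limma-voom and 7 with every gene of at least 1 count. It was 7 when control replicate 3 was left out, 6 for deficient replicate 1, 1 for deficient replicate 2 and 0 for each of the other 3 libraries. Six2, a homeobox factor of head mesenchyme, fell from 4.25, 7.76 and 3.53 CPM to 1.49, 1.89 and 1.38 CPM, at −1.68 (standard error 0.34, edgeR with Benjamini-Hochberg adjustment, adjusted p = 0.0490). Shox2, a homeobox factor of palate and limb, fell from 6.06, 5.62 and 2.30 CPM to 2.35, 1.34 and 0.997 CPM, at −1.59 (standard error 0.43, edgeR with Benjamini-Hochberg adjustment, adjusted p = 0.0784). In Shox2 the third control lay just under the first deficient library, and in Six2 the groups did not overlap.

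Among 13 bHLH partners and relatives of the Hand factors, 8 were tested, and 2 were called lower and none higher, beside 4.88% and 0.0573% of all tested genes. Their median was −0.33 (0.54 under the scaling and −0.66 without control replicate 3), against −0.02 over all tested genes. Twist1, a bHLH factor of crest mesenchyme that pairs with Hand2 and is itself among the mesenchymal crest markers, fell from 9.68, 13.1 and 5.91 CPM to 4.46, 4.52 and 3.56 CPM, at −1.18 (standard error 0.27, edgeR with Benjamini-Hochberg adjustment, adjusted p = 0.0647). Tcf3, a widely expressed E protein that bHLH factors pair with, fell from 32.1, 35.2 and 27.2 CPM to 23.6, 19.9 and 19.0 CPM, at −0.59 (standard error 0.12, edgeR with Benjamini-Hochberg adjustment, adjusted p = 0.0483), just past the fold threshold. It was 0.29 under the scaling, and its call was lost with DESeq2, with library totals, with every gene of at least 1 count and with the length trend removed. In both genes the groups did not overlap.

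Over the 7 lists, 62 of 82 genes were tested, 9 were called lower, 0 were called higher and 53 were not called, beside the 4.88% and 0.0573% of all tested genes. At an unadjusted p under 0.05, 21 were lower and 6 higher, beside 15.2% and 12.1% of all tested genes, and DESeq2 and limma-voom called 0 higher. Their median log2 fold change was −0.18. None of the 9 calls was kept when the first or second control or the third deficient sample was left out, and 2 were kept without deficient replicate 2 (Mme and Six2). Without control replicate 3 or deficient replicate 1 all 9 were kept, among 16 and 14 calls. Under the scaling to the embryonic markers 1 of the 9 was kept (Sox10), while Mme, at −1.04, passed the adjusted p and the fold but not the minimum level (edgeR with Benjamini-Hochberg adjustment, adjusted p = 0.0756). The same held for Mme when control replicate 2 was left out, at −1.81 (edgeR with Benjamini-Hochberg adjustment, adjusted p = 0.0938).

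**Figure D4:**
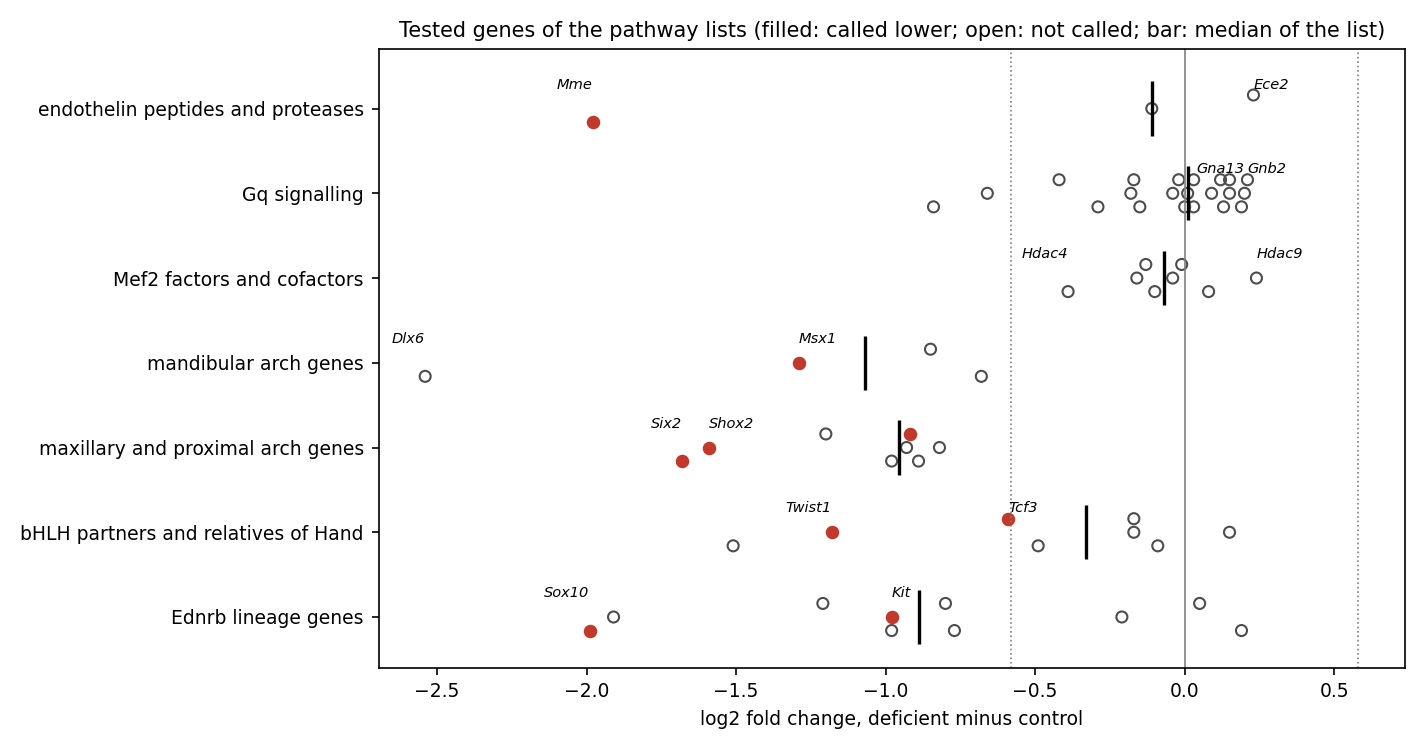
Log2 fold change, deficient minus control (horizontal axis), of the 62 tested genes of the 7 lists (rows), with genes called lower filled, genes not called open and the median of each list as a bar; dotted lines mark 0.58 in either direction. The medians of the Gq and Mef2 lists are 0.01 and −0.07, and those of the mandibular, maxillary and Ednrb lineage lists −1.07, −0.96 and −0.89.

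The genes most like Ednra over the 6 libraries, by the root mean square difference of log2 CPM after each gene's own mean was taken off, were Ebf2 (0.115), Elavl4 (0.117) and Elavl2 (0.121), out of 11786 genes with at least 2 CPM. Ebf2 is a factor of mesenchyme and neurons, and Elavl4 and Elavl2 are neuronal RNA-binding proteins. Ebf2 had 8.51, 13.0 and 6.24 CPM in control samples and 4.23, 2.99 and 4.56 CPM in deficient samples, highest and lowest in the same libraries as Ednra. The genes most like Mef2c were Klhdc10 (0.0249), Dlg1 (0.0406) and Zfp236 (0.0423), and those most like Hand2 were Mettl26 (0.137), Fam83h (0.159) and Gmeb1 (0.165), all 6 not called. Likeness over 6 libraries is a description, and the libraries differ in depth and in their marker sums.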

How the data were processed

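Per the labels, RNA of GFP+ cells sorted from 3 control and 3 BAF155/BAF170-deficient embryos was made into strand-specific poly(A) libraries and sequenced in pairs. The authors trimmed adapters, used STAR to align the reads to GRCm38 and featureCounts to assign them to genes. The deposited values are raw counts per gene. The annotation release, strand setting and treatment of reads mapping to several places are not given in the sources used here. Of 46983 identifiers, 46488 had a name in GENCODE M21, which also gave coordinates and exon lengths.

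Counts were analysed here in R 4.3.3 with edgeR 4.0.16 (filterByExpr with minimum count 10 and minimum total count 15, TMM, robust quasi-likelihood fit, condition as the only term), with Benjamini-Hochberg adjustment over the 13961 tested genes and the thresholds of the study's methods (adjusted p 0.1, log2 fold change 0.58, mean 2 CPM). CPM use TMM-scaled library sizes, with a prior count of 2 for log2 CPM. The common biological coefficient of variation was 12.8%. Pairs of genes were compared by exact permutation. Alternatives were DESeq2 1.42.0, limma-voom (limma 3.58.1), library totals, other filters, a replicate block, a length trend removed (lowess span 0.3), scaling to 24 embryonic markers (pseudocount 0.5 CPM) and each library left out. Scripts were tested on simulated data. Promoters are from RefSeq on GRCm38.p6. Intervals on counts and limits for 0 counts cover counting error only. Each library is taken as a separate embryo of the 3 per genotype given in the methods.

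The members, lists and alternatives were chosen with earlier results of these data known. Beside the members, Smarcc1 and Smarcc2, the text names the 2 tested genes with the lowest adjusted p in each list, any listed gene called higher, and the 3 genes most like Ednra, Hand2 and Mef2c. Other genes named were picked after their values were seen. Some listed genes are not reported by name here.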

Additional observations from a re-analysis of the deposited data

How the results depend on the processing

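The count of endothelin and Hand genes called lower (1) was 0 with limma-voom and with scaling to the embryonic markers, and 0 to 1 with a library left out, and the count called higher (0) was 4 with that scaling. Of the listed pathway genes, 9 were called lower in the reported fit, 16 with every gene of at least 1 count, 14 with the replicate block, 1 with the scaling and 0 to 16 with a library left out, and 22 were called higher with the scaling. Of all genes, 681 were called lower and 8 higher. These counts were 1143 and 21 with the replicate block and 52 and 7387 with the scaling, 15 higher with DESeq2, 33 higher with every gene of at least 1 count, and 0 to 1219 lower and 0 to 45 higher with a library left out. Without control replicate 1 edgeR called 0 genes, with 2547 at an unadjusted p under 0.05. The scaling, which moves the median log2 fold change of all genes to 0.844 by its construction, turned the sign of Ednrb (0.86), Gna11 (0.44), Mef2c (0.76), Hand2 (0.27), Hdac4 (0.49), Tcf3 (0.29), Mettl26 (0.52), Fam83h (0.52), Gmeb1 (0.43), Klhdc10 (0.76), Dlg1 (0.76), Zfp236 (0.76), Smarcc1 (0.20) and Smarcc2 (0.75). Removal of the length trend turned Mef2c (0.17), Klhdc10 (0.04), Dlg1 (0.09) and Zfp236 (0.09). Signs close to 0 also turned for Ednrb with DESeq2 (0.01), limma-voom (0.00389), library totals (0.05), every gene of at least 1 count (0.04), the block (0.01) and the length trend (0.02), and for Ece1 with a 1 CPM filter (−0.000883). With a library left out the log2 fold change lay between −0.03 and 0.03 for Ece1, −0.09 and 0.16 for Ednrb, −0.00179 and 0.08 for Gnaq, and −0.62 and 0.12 for Fam83h. Beyond what each setting's construction gives, the cause was not tested. Samples with the same replicate number deviated with correlations of 0.0284, −0.0335 and 0.293, and samples of unlike number with correlations from −0.295 to 0.261. These values do not show whether the numbers pair the samples. The numbers are those of the sample titles, and the column labels number the deficient samples differently. The block kept the call of Ednra. Depth limits Hand1, Edn3 and Hand2, and the 3 libraries a group limit every p-value.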
